A study of Mus musculus with 12 samples.

Results

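The PRL phosphatases are the products of 3 mouse genes, Ptp4a1 (PRL-1), Ptp4a2 (PRL-2) and Ptp4a3 (PRL-3). They were followed through RNA sequencing of 12 mouse melanoma tumors. The 3 genes were picked by symbol, and they correspond to 4 of the 55487 Ensembl identifiers in the count table, because Ptp4a1 is listed under 2 identifiers. All 4 identifiers were among the 16225 that passed the filter on low counts. Ptp4a3 and its paralogs were singled out with their levels by genotype already in view, so every value that sets the genotypes side by side is a description of the 3 genes. No p-value is given for them in that comparison, and nothing is read from whether they passed its threshold. The relation of each PRL gene to endothelial genes within a genotype does not use the difference between the genotypes, and it was tested. The lists and tests for it were nonetheless chosen with earlier results of these data known.

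PRL enzymes are small protein tyrosine phosphatases that are anchored to membranes by a prenyl group at the C-terminus. Their catalytic pocket uses a cysteine that forms a phospho-intermediate, and they bind the CNNM magnesium transporters, which links them to cellular magnesium. PRL-3 is best known for high levels in metastatic tumors, melanoma among them, and for its presence in the endothelium of tumor vessels.

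All 12 tumors carried the BrafCA allele, a conditional form of the Braf oncogene, with floxed Cdkn2a (genotype BrafCA;Cdkn2af/f). The 6 tumors called wild type here had no change at Arf6, and the 6 called Arf6-null had floxed Arf6 as well (BrafCA;Cdkn2af/f;Arf6f/f), Arf6 being a small GTPase of endosome and membrane traffic. The sources used here do not give the agent that recombines the floxed alleles, its target cell, or the age and number of animals. Whether each tumor is from its own animal is not labelled. All p-values treat the 12 tumors as separate samples, and the spread among animals cannot be read from them.

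Wild-type libraries held 22211738 to 30326419 counts in total, and Arf6-null libraries held 21007954 to 45688253. The library numbers were 1 to 6 for wild type and 19 to 24 for Arf6-null, so the genotype and any difference between sets of libraries cannot be told apart. In CPM, which are counts relative to the scaled size of a library, Arf6 itself averaged 111 ± 24.9 with the gene intact and 18.3 ± 3.73 in its absence (SD, n = 6 each), with no overlap between the genotypes. Pigment cell markers were scarce in both groups: no library had more than 2 counts of Tyr, Tyrp1, Dct or Slc45a2, Mlana had 0 counts throughout, Sox10 had 0 to 33 and Pmel 10 to 50. So the defining genes of pigment cells were at or near 0 under a melanoma label, while Mitf, the melanocyte transcription factor that other cells also express, had 238 to 1239 counts. In the genotype comparison 186 of 16225 genes passed an adjusted p of 0.05 by edgeR's quasi-likelihood test, 95 higher and 91 lower in Arf6-null. An unadjusted p under 0.05 was reached by 23.4% of the tested genes, an adjusted p under 0.05 by DESeq2 by 12%, and by limma-voom by 1.2%, and the lists below are read against these shares.

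The coding sequences show how far reads of the 3 genes can be kept apart. The stretch that codes for the catalytic signature is shown for each, 60 bases on the sense strand of GENCODE transcripts of GRCm38, with capitals at bases unlike those of both other genes:
Ptp4a1: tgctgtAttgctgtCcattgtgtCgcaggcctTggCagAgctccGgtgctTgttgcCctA
Ptp4a2: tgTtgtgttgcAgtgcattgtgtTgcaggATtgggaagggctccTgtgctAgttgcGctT
Ptp4a3: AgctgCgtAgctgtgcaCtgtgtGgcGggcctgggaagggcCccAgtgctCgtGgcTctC
These are coding bases 292 to 351 of Ptp4a1 and Ptp4a3 and 283 to 342 of Ptp4a2. Even in this conserved part only 39 of the 60 bases were the same in all 3 genes, and Ptp4a3 had the most bases of its own, 12, against 10 in Ptp4a1 and 9 in Ptp4a2. Over the whole coding sequence (519 bases in Ptp4a1 and Ptp4a3, 501 in Ptp4a2) Ptp4a1 and Ptp4a2 were 76.3% identical, while Ptp4a3 was 68.7% identical to Ptp4a1 and 68.9% to Ptp4a2. The longest run shared with Ptp4a3 was 14 bases for either paralog, and that between Ptp4a1 and Ptp4a2 was 18 bases.

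Processed pseudogenes, by contrast, come close to 2 of the genes. A search of annotated pseudogenes found 8 copies nearest to Ptp4a1, of which Gm8783 and Gm15801 matched its coding sequence at 100% over 519 bases. It found 2 nearest to Ptp4a2, the closer being Gm13422 at 97.2% over 501 bases, and no copy nearest to Ptp4a3. Few reads were assigned to any of these copies. Gm15801 had at most 12 counts in a library and Gm13422 at most 11, and none of the 10 copies passed the filter. The sources used here do not say how reads that fit several places were counted.

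Ptp4a3 (ENSMUSG00000059895, chr15:73723145-73758766 of GRCm38, plus strand) was the PRL gene whose level differed most between the genotypes. Its level in wild type was 52.3 CPM in the lowest tumor, 66.4 at the median and 75.3 in the highest. In Arf6-null the lowest tumor was at 15.8 CPM, the median was 25.6 and the highest was 38.2. The genotypes did not overlap, and the highest Arf6-null tumor lay below the lowest wild-type tumor. The means were 65.7 ± 9.06 CPM with Arf6 and 26.4 ± 7.68 CPM without it (SD, n = 6 each), 2.49-fold higher in wild type, and the fitted log2 fold change of Arf6-null over wild type was -1.31 (SE 0.19). These levels rest on 452 to 2143 counts per library. In a bulk tumor, fewer cells that express a gene and less RNA in each such cell cannot be told apart.

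Ptp4a2 (ENSMUSG00000028788, chr4:129811219-129850003, plus strand) had more counts than Ptp4a3 in every library, 6927 to 16198. Its level was 279 CPM in the lowest wild-type tumor, 310.2 at the median and 403 in the highest. In Arf6-null it ran from 341 CPM over a median of 358 to 535 CPM in the highest tumor. The genotypes overlapped: 2 wild-type tumors, at 398 and 403 CPM, lay above 4 of the Arf6-null tumors. The means were 333 ± 54.1 CPM with Arf6 and 412 ± 94.1 CPM without it (SD, n = 6 each), and the log2 fold change was 0.31 (SE 0.16), opposite in sign to that of Ptp4a3.

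**Figure D1:**
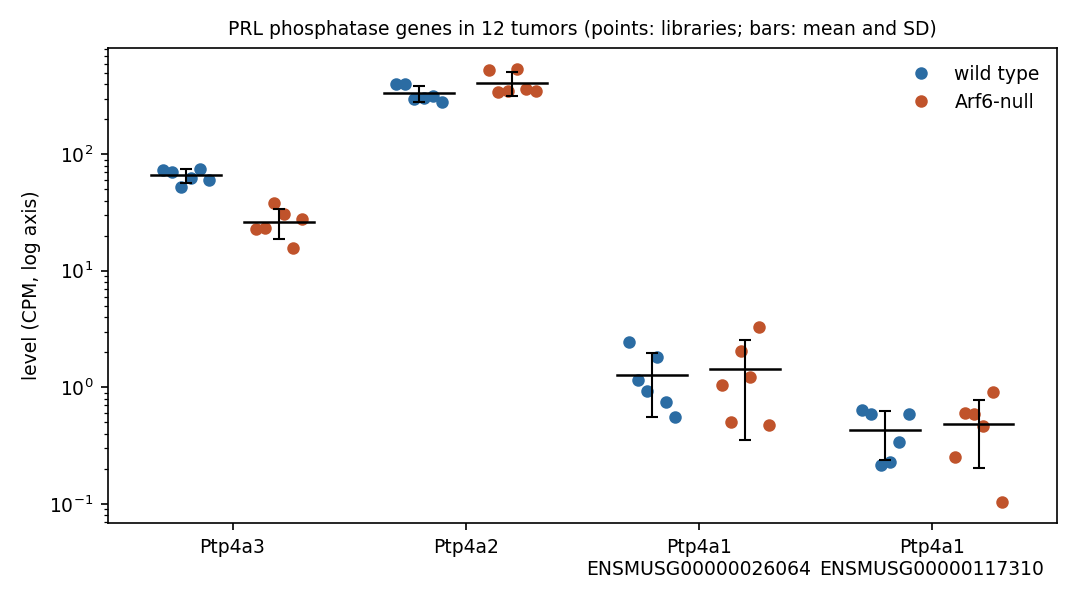
Levels of the PRL genes in each of the 12 tumors, in CPM on a log axis, with 1 point per library and bars for the mean and SD of 6 libraries. Ptp4a3 separates the genotypes (52.3 to 75.3 against 15.8 to 38.2 CPM), Ptp4a2 overlaps, and both Ptp4a1 identifiers stay below 4 CPM.

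Set against Ptp4a2 in the same library, Ptp4a3 had 17.6 to 23.9 counts per 100 counts of Ptp4a2 in wild type and 4.28 to 11 in Arf6-null. The ratio does not depend on how libraries are scaled, and its ranges were separate. It reuses the Ptp4a3 values by which the gene was chosen, so it adds no evidence. Per kilobase of the principal transcript, Ptp4a2 stood at 91.2 ± 14.9 CPM with Arf6 and 113 ± 25.8 CPM without it, and Ptp4a3 at 20.2 ± 2.78 and 8.11 ± 2.35 CPM (SD, n = 6 each). On that length-scaled level Ptp4a2 exceeded Ptp4a3 by 4.54 ± 0.536 times in wild type and by 14.9 ± 5.14 times in Arf6-null. Other principal transcripts of Ptp4a3 have 1680 to 3539 bases, and a shorter length for Ptp4a3 would lower these ratios. With the length of all annotated exons in place of a principal transcript the ratios were 10.9 and 35.7. The exon models of Ptp4a3 include a long transcript with a retained intron.

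Ptp4a1 could not be measured as a gene from these counts. GENCODE gives it overlapping models on the minus strand of chromosome 1, ENSMUSG00000026064 at chr1:30940302-30949309 and ENSMUSG00000117310 at chr1:30940302-30949770, and both encode the same 519 coding bases. Of their exon bases, 3923 lie in both models. That leaves ENSMUSG00000026064 with 1618 bases of its own, 29.2% of its exons, and ENSMUSG00000117310 with 222 bases, 5.36% of its exons. The shared part holds the whole coding sequence, and the sources used here do not say how reads that fall in both models were handled.

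**Figure D2:**
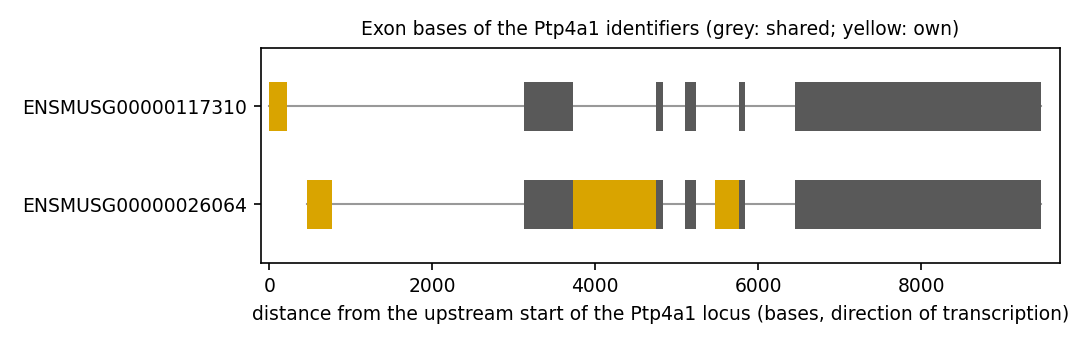
Exon bases of the Ptp4a1 identifiers along the direction of transcription, as the distance in bases from the upstream start of the locus. Grey blocks, 3923 bases, lie in both models, and yellow blocks, 1618 and 222 bases, lie in only a single model.

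The counts of Ptp4a1 were low in every tumor. ENSMUSG00000026064 had 16 to 147 counts per library, at 0.555 to 2.43 CPM in wild type (median 1.05) and 0.47 to 3.32 CPM in Arf6-null (median 1.14). ENSMUSG00000117310 had 4 to 40 counts, at 0.213 to 0.636 CPM in wild type (median 0.463) and 0.105 to 0.904 CPM in Arf6-null (median 0.528). The genotypes overlapped fully for both, in that the lowest and the highest tumor of all were Arf6-null. Their log2 fold changes were 0.18 (SE 0.52) and 0.18 (SE 0.46), and the sum of both identifiers, a quantity chosen after seeing the data, gave 0.18 (SE 0.45).

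Other genes with such models were also low. Of 307 protein-coding identifiers with under 30% exon bases of their own, 77 passed the filter on low counts (25.1%), at a median of 1.35 CPM. Of the 21667 other protein-coding identifiers 13929 passed (64.3%), at a median of 29.6 CPM. Whether the overlap of models lowers their counts, or those of Ptp4a1, was not tested. The level of Ptp4a1 relative to its paralogs was therefore not drawn from these counts, and the values of Ptp4a1 that follow describe reads assigned to its identifiers.

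Among the 4 PRL identifiers, Ptp4a3 was the 1 that passed the threshold and the 1 whose ranges did not overlap. Over all tested genes 1.15% passed in either direction, 0.561% as lower and 0.586% as higher. Ranges did not overlap for 2.36% of all tested genes, and 1.21% had such ranges with Arf6-null lower. The genes were chosen with this comparison known, so that count carries no weight as evidence. In each of 23 other ways of processing and fitting the data Ptp4a3 kept its sign and moved by less than 1 SD between replicates, as the plot of fold changes by setting shows. Leaving out single libraries moved its log2 fold change between -1.45 and -1.20, and that of Ptp4a2 between 0.22 and 0.37. These fits reuse the values by which Ptp4a3 was chosen, so they too carry no weight as evidence. With ranges that do not overlap, leaving out libraries could not reverse the sign of Ptp4a3.

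**Figure D3:**
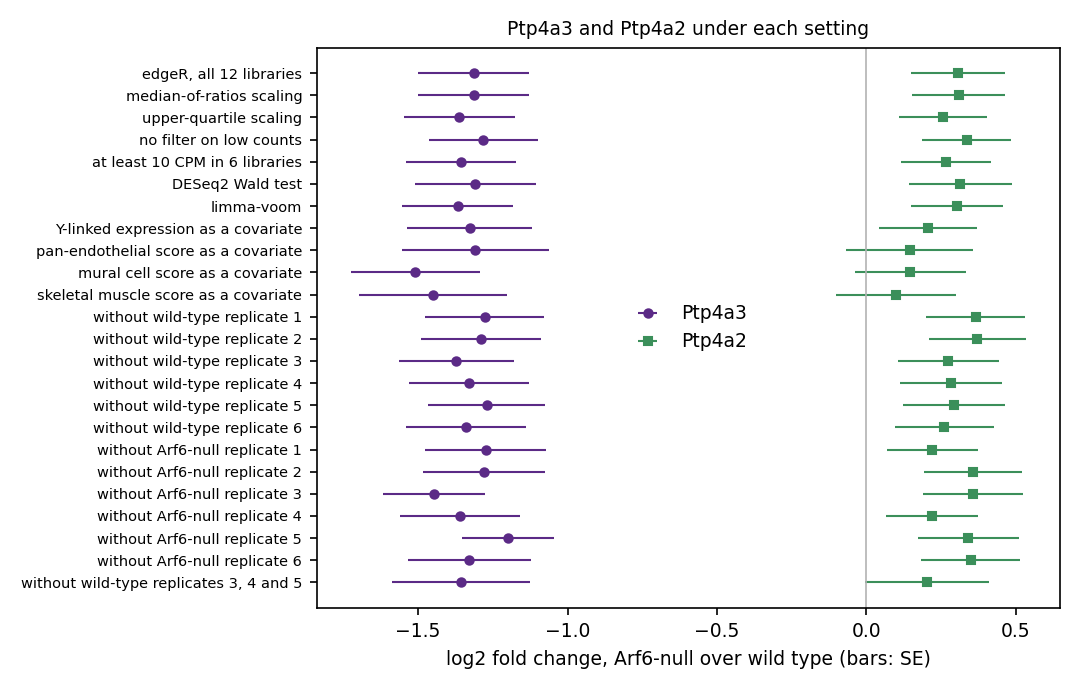
Fitted log2 fold changes (Arf6-null over wild type, with SE) of Ptp4a3 and Ptp4a2 under each scaling, filter, test, covariate and left-out library. Ptp4a3 stays on the side of lower levels in Arf6-null, from -1.51 to -1.20, and Ptp4a2 stays above 0. The fits reuse the values by which Ptp4a3 was chosen and are a description.

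The CNNM proteins, the magnesium transporters that PRL enzymes bind, held no passing gene. Of the 4 genes, 3 were tested and 0 passed by edgeR, DESeq2 or limma-voom, or at an unadjusted p. Cnnm4, a basolateral magnesium exporter of epithelia, was at 20.1 ± 7.79 CPM with Arf6 and 31.0 ± 18.9 CPM without it (log2 fold change 0.62, SE 0.36). Where a pair of levels follows a gene from here on, wild type stands first, each as mean ± SD of 6 tumors, with the log2 fold change and its SE after it. Cnnm3 was at 25 ± 5.37 and 26.7 ± 4.21 CPM (0.09, SE 0.16), and Cnnm2, mutated in inherited low magnesium, at 10.6 ± 3.43 and 8.86 ± 2.74 CPM (-0.26, SE 0.25). Cnnm1 had 0 to 22 counts per library and was not tested.

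Of 11 other genes of magnesium transport 0 passed by edgeR or limma-voom, 1 did by DESeq2 and 2 had an unadjusted p under 0.05, with a median log2 fold change of -0.10 against -0.03 over all tested genes. The smallest p-values belonged to Tusc3, a subunit of the oligosaccharyltransferase that has been tied to magnesium uptake (81.0 ± 8.44 and 102 ± 12.1 CPM, log2 fold change 0.34, SE 0.10, adjusted p = 0.0821 by edgeR), and to Arl15, a small GTPase that binds CNNM proteins (17.0 ± 3.27 and 13.3 ± 2.17 CPM, -0.35, SE 0.16, adjusted p = 0.209).

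Of 8 reported regulators of PRL genes 0 passed by edgeR or limma-voom, 2 did by DESeq2, and 2 had an unadjusted p under 0.05. Mef2c, a transcription factor reported to act on Ptp4a3 downstream of VEGF in endothelial cells, was at 35.5 ± 15.5 CPM with Arf6 and 9.66 ± 5.49 CPM without it (log2 fold change -1.87, SE 0.44, adjusted p = 0.0566 by edgeR), with overlapping ranges. Mef2c is also a muscle and macrophage gene. Pcbp1, an RNA-binding protein reported to hold back translation of the PRL-3 message, was at 242 ± 26.4 and 332 ± 56.5 CPM (0.45, SE 0.12, adjusted p = 0.0712). Vegfa, Trp53, Stat3, Smad3, Snai1 and Egr1 had log2 fold changes between -0.03 and 0.41.

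The classical tyrosine phosphatases served as a frame for the PRL genes. Of 37 listed genes 36 were tested, 0 passed by edgeR or limma-voom, and 0 had ranges that did not overlap, against 2.36% over all tested genes. An unadjusted p under 0.05 was reached by 10 of the 36 (27.8%), and DESeq2 called 6 (16.7%), against 23.4% and 12% of all tested genes. The median log2 fold change was -0.15. The smallest p-values were those of Ptpn5, a phosphatase of neurons also known as STEP (6.48 ± 6.26 and 49.7 ± 23.9 CPM, log2 fold change 2.94, SE 0.67, adjusted p = 0.0562 by edgeR), and Ptpn13, a large cytosolic phosphatase (105 ± 31.6 and 65.8 ± 13.3 CPM, -0.67, SE 0.21, adjusted p = 0.0942).

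**Figure D4:**
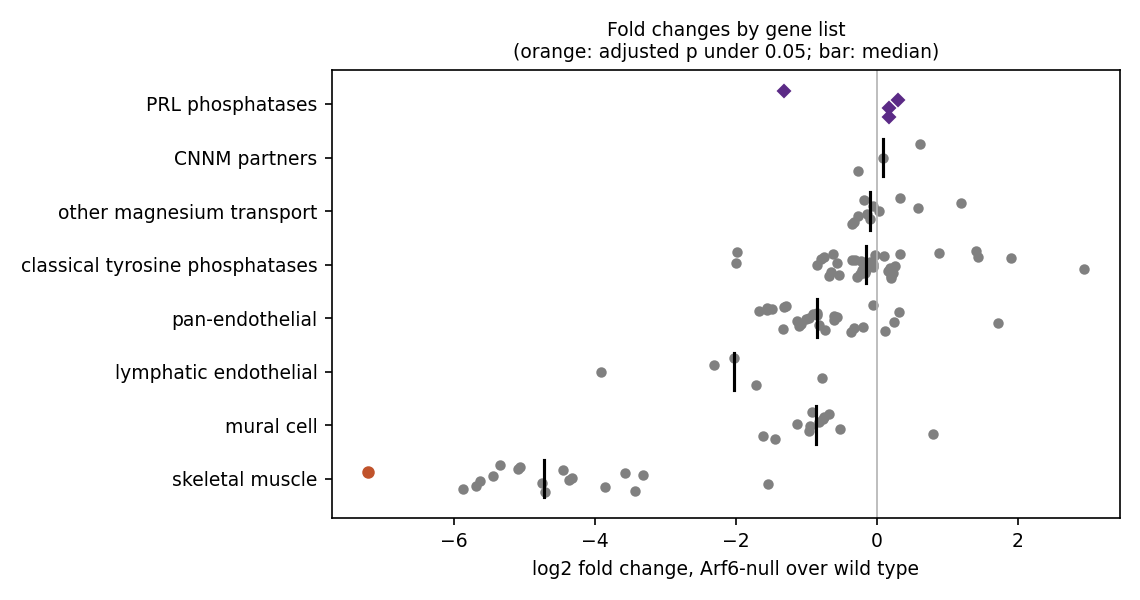
Fitted log2 fold changes (Arf6-null over wild type) of the tested genes of each list, 1 point per gene, with a bar at the median and orange points for an adjusted p under 0.05. PRL identifiers are diamonds without a median, and the skeletal muscle list lies far to the left with a median of -4.72.

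The tested genes nearest to Ptp4a3 on chromosome 15 are given as a description of the locus. The nearest tested protein-coding genes upstream were Slc45a4 (log2 fold change 0.13, SE 0.17), Dennd3 (-0.76, SE 0.30) and Ptk2, which encodes focal adhesion kinase (0.15, SE 0.21). Downstream they were Arc (-0.80, SE 0.54), Jrk (0.65, SE 0.28) and Them6 (1.02, SE 0.42). These 3 are not close to Ptp4a3, which ends at base 73758766, as Arc starts at base 74669083. Within 1 Mb on each side 12 genes were tested, and 0 passed by edgeR, DESeq2 or limma-voom. As only 1.15% of all tested genes passed by edgeR, nothing is read from 0 of 12. An unadjusted p under 0.05 was reached by 4 of the 12 (33.3%, against 23.4% over all tested genes), and their median log2 fold change was 0.05.

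Because PRL-3 is known from tumor endothelium, endothelial genes were set beside Ptp4a3. Of 28 pan-endothelial genes, all tested, 0 passed by edgeR, 1 passed by limma-voom and 8 by DESeq2, of which 7 were lower (28.6%, against 12% over all tested genes). An unadjusted p under 0.05 by edgeR was reached by 14 of the 28 (50%), 13 of them lower. Of the 28 genes, 24 had a negative log2 fold change, and the median was -0.85, against a median of -0.03 and 8565 negative values among the 16225 genes. The list's score, the mean log2 CPM of its genes, was 3.64 to 4.77 in wild type and 2.63 to 4.16 in Arf6-null, so the genotypes overlapped. The summed level of the 28 genes was 511 to 1169 CPM in wild type and 492 to 1005 CPM in Arf6-null, and no gene of the list was at 0 in any library. That sum includes Esam, which had the highest log2 fold change of the list (39.2 ± 16.6 and 130 ± 110 CPM, 1.73, SE 0.56, adjusted p = 0.106 by edgeR).

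Single endothelial genes had fold changes of either sign. Tie1, Tek and Kdr, receptors of the angiopoietin and VEGF systems, had log2 fold changes of -1.28 (SE 0.39), -1.31 (SE 0.56) and -1.14 (SE 0.41), close in size to that of Ptp4a3. All 3 had overlapping ranges, and only 2.36% of all tested genes had ranges that did not overlap. Ptp4a3 was chosen with its ranges in view, so nothing is read from its contrast with these genes. Tie1 ran from 15.3 to 47.7 CPM in wild type (median 29.3) and from 5.70 to 24.3 CPM in Arf6-null (median 10.3). Pecam1, the adhesion molecule CD31, was at -0.57 (SE 0.29). Cdh5, the endothelial cadherin, was at 0.11 (SE 0.42), with medians of 61.5 CPM with Arf6 and 65.8 CPM without it, and Flt1, a VEGF receptor, was at 0.24 (SE 0.42), with medians of 37.0 and 44.8 CPM. The smallest p-values of the list were those of Clec14a, an endothelial surface lectin (10.9 ± 3.19 and 4.33 ± 2.10 CPM, log2 fold change -1.33, SE 0.31, adjusted p = 0.0562 by edgeR), and Tal1, a transcription factor of blood and vessel development (2.46 ± 1.39 and 0.829 ± 0.376 CPM, -1.56, SE 0.38, adjusted p = 0.0594).

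Within genotypes, no relation of Ptp4a3 to the endothelial score was detected. After subtracting the mean of each genotype, Pearson's r over the 12 tumors was 0.028 (two-sided permutation within genotypes, p = 0.942, adjusted p = 0.957) and Spearman's rho was -0.182 (permutation p = 0.6, adjusted p = 0.825). In wild type r was -0.313 (exact permutation p = 0.535, adjusted p = 0.881, n = 6) and in Arf6-null it was 0.18 (exact permutation p = 0.762, adjusted p = 0.894, n = 6). The rho values were -0.486 (exact permutation p = 0.356, adjusted p = 0.809) and 0.314 (exact permutation p = 0.564, adjusted p = 0.942). Without the 2 tumors farthest from the median score, the centred r was 0.142 (permutation p = 0.608). Adjustment covered 33 centred relations, 3 PRL genes by 11 scores, and 66 relations within a genotype. With 12 tumors an r of moderate size could have been missed.

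Tumors with like scores are set side by side as a description only. The Ptp4a3 ranges of the genotypes do not overlap, so any wild-type and Arf6-null pair differs in Ptp4a3 whatever its score. Wild-type replicate 5 had the highest Ptp4a3 level, 75.3 CPM, and the lowest endothelial score of its genotype, 3.64. Arf6-null replicate 3 had that same score of 3.64 and 38.2 CPM of Ptp4a3. Across the 28 endothelial genes the median centred r with Ptp4a3 was 0.11, and 16 of the 28 were positive, against a median of 0.01 over all tested genes. Tek had the highest value of the list, 0.55, with 0.40 for Pecam1, 0.39 for Tie1, 0.22 for Kdr, 0.30 for Cdh5 and -0.35 for Flt1. The lowest was that of Cldn5, an endothelial tight junction gene, at -0.60. These correlations share 12 libraries and are given as descriptions.

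**Figure D5:**
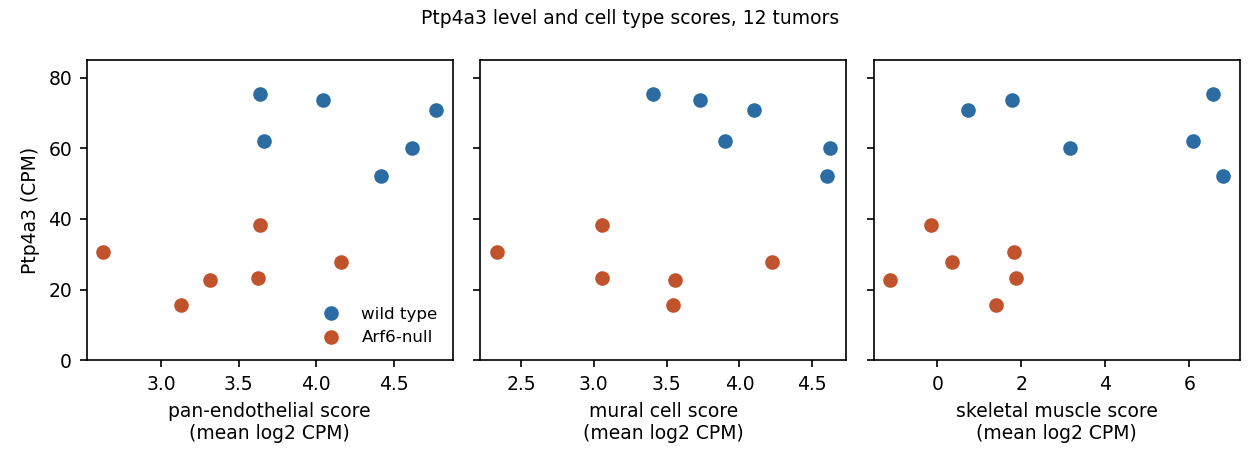
Level of Ptp4a3 in CPM against the pan-endothelial, mural cell and skeletal muscle scores (mean log2 CPM of the list), 1 point per tumor. At endothelial scores that both genotypes share, near 3.64, wild-type tumors lie at 62.0 and 75.3 CPM and Arf6-null tumors at 23.4 and 38.2 CPM. The Ptp4a3 ranges do not overlap, so tumors of different genotypes differ at any score.

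Lists of other cell types were placed beside Ptp4a3 as well. Of 7 lymphatic endothelial genes 5 were tested, all with negative fold changes and a median of -2.03. Of these 0 passed by edgeR or limma-voom, 3 did by DESeq2, and 3 had an unadjusted p under 0.05. Their summed level was 40.6 to 311 CPM in wild type and 9.01 to 95.4 CPM in Arf6-null, and 1 of the genes was at 0 in some library. Flt4, the lymphatic VEGF receptor, had ranges that did not overlap (12 ± 6.85 and 3.68 ± 1.76 CPM, log2 fold change -1.71, SE 0.41), and Mmrn1 was at 5.97 ± 8.65 and 0.385 ± 0.37 CPM (-3.91, SE 1.16). Of 13 genes of mural cells, the pericytes and smooth muscle around vessels, 12 were tested, 11 were negative and the median was -0.87. Of these 0 passed by edgeR or limma-voom, 1 did by DESeq2, and 3 had an unadjusted p under 0.05. They had a summed level of 247 to 598 CPM in wild type and 80.7 to 390 CPM in Arf6-null and no gene at 0. Abcc9 (33.9 ± 11.2 and 12.4 ± 5.51 CPM, -1.44, SE 0.34) and Mcam (80.5 ± 35.5 and 36.6 ± 18.9 CPM, -1.14, SE 0.41) had the smallest p-values. Of 10 angiogenic tip cell genes 0 passed by edgeR, DESeq2 or limma-voom, 4 had an unadjusted p under 0.05, and the median was -0.10.

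The lowest fold changes were those of skeletal muscle genes. All 18 were negative, with a median of -4.72, had an unadjusted p under 0.05 and passed by DESeq2, and 0 passed by limma-voom. Their summed level was 44.6 to 3639 CPM in wild type against 16.5 to 98.7 CPM in Arf6-null, with 2 of the genes at 0 in some library. Of the 18, Pvalb, the calcium buffer of fast fibers, passed as lower (25.7 ± 37.3 and 0.17 ± 0.152 CPM, log2 fold change -7.22, SE 1.44, adjusted p = 0.0392 by edgeR), but in only 3 of the 12 fits that left out a library. All 12 fibroblast genes were negative (median -1.03), 0 passed by edgeR or limma-voom, 2 did by DESeq2 and 5 had an unadjusted p under 0.05. Of 14 genes of glycolysis and hypoxia all were positive (median 1.02), 13 had an unadjusted p under 0.05 (92.9%), 11 passed by DESeq2 (78.6%) and 2 by limma-voom. By edgeR 2 passed as higher, the glycolytic enzyme genes Tpi1 (488 ± 109 and 993 ± 267 CPM, 1.02, SE 0.21, adjusted p = 0.0435 by edgeR) and Pfkl (129 ± 53.1 and 359 ± 109.8 CPM, 1.47, SE 0.31, adjusted p = 0.0448), each in only 3 of the same 12 fits.

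The fit was repeated with scores of 3 of these lists as covariates. The fitted log2 fold change of Ptp4a3, -1.31 (SE 0.19) without a covariate, was -1.31 (SE 0.25) with the endothelial score as a covariate, -1.51 (SE 0.22) with the mural score and -1.45 (SE 0.25) with the muscle score. Without wild-type replicates 3, 4 and 5, which had the highest muscle scores, it was -1.36 (SE 0.23). With Y-linked expression as a covariate it was -1.33 (SE 0.21). The Y-linked score was spread unevenly over the genotypes. Wild-type tumors 2 and 4 scored 5.53 and 5.81, tumor 1 scored 2.36, and tumors 3, 5 and 6 scored -3.96, -3.08 and -3.65. Every Arf6-null tumor scored 4.51 to 5.67 except replicate 6, at -2.74. The part of sex in the genotype comparison was not tested. The lymphatic, fibroblast and glycolysis scores were not entered, and the part of any of these cell types in the Ptp4a3 difference was not tested. Over the same fits the fold change of Ptp4a2 was 0.15 with the endothelial score, 0.15 with the mural score, 0.10 with the muscle score, 0.20 without those replicates and 0.21 with Y-linked expression.

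Among the other relations within genotypes none passed adjustment. The largest for Ptp4a3 was with the keratinocyte score, which rests on 4 tested genes of low level (summed 7.99 to 24.6 CPM over all tumors), at a centred r of -0.707 (permutation p = 0.0182, adjusted p = 0.3) and rho of -0.524 (permutation p = 0.112, adjusted p = 0.652). Without the 2 tumors farthest from the median score it was -0.578 (permutation p = 0.137). In Arf6-null that r was -0.903 (exact permutation p = 0.00556, adjusted p = 0.367, n = 6), the smallest p of the 66 relations within a genotype, and in wild type it was -0.217 (exact permutation p = 0.656, adjusted p = 0.894, n = 6). Ptp4a3 and the mural score had a centred r of -0.457 (permutation p = 0.19, adjusted p = 0.611) and rho of -0.573 (permutation p = 0.0717, adjusted p = 0.591). Their r was -0.842 in wild type (exact permutation p = 0.0458, adjusted p = 0.497, n = 6) and -0.333 in Arf6-null (exact permutation p = 0.531, adjusted p = 0.881, n = 6). Without the 2 tumors farthest from the median mural score the centred r was -0.612 (permutation p = 0.0122, not adjusted). With the mural score removed from both measures, the centred r of Ptp4a3 with the endothelial score was 0.623 (permutation p = 0.0375, not adjusted), and with the muscle score removed it was -0.108 (permutation p = 0.785). With the fibroblast score removed, that r was 0.094 (permutation p = 0.747). The size of that relation thus depended on which other score was held fixed. Nothing is read from the sign of the values near 0. The smallest adjusted p of the centred relations was 0.141, for Ptp4a1 and the T cell score (r = -0.767, permutation p = 0.00428, rho = -0.79, permutation p = 0.00513). It rests on the few Ptp4a1 reads described above, and without the 2 tumors farthest from the median score r was -0.653 (permutation p = 0.0516). For Ptp4a2 the largest was also with the T cell score (r = -0.625, permutation p = 0.0308, adjusted p = 0.338).

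No relation between PRL genes from tumor to tumor passed adjustment. The centred r was 0.195 for Ptp4a2 with Ptp4a3 (permutation p = 0.609), 0.197 for Ptp4a1 with Ptp4a2 (permutation p = 0.594) and -0.127 for Ptp4a1 with Ptp4a3 (permutation p = 0.774), each at an adjusted p of 0.774 over the 3 pairs. The corresponding rho values were 0.203 (permutation p = 0.574), 0.301 (permutation p = 0.388) and -0.007 (permutation p = 0.992). In wild type alone r was 0.678 for Ptp4a2 with Ptp4a3 (exact permutation p = 0.175, adjusted p = 0.525), 0.704 for Ptp4a1 with Ptp4a2 (exact permutation p = 0.154, adjusted p = 0.525) and 0.405 for Ptp4a1 with Ptp4a3 (exact permutation p = 0.422, adjusted p = 0.844). In Arf6-null the same pairs were at 0.033 (exact permutation p = 0.944, adjusted p = 0.944), -0.0244 (exact permutation p = 0.944, adjusted p = 0.944) and -0.279 (exact permutation p = 0.603, adjusted p = 0.904), with 6 tumors each and adjustment over the 6 relations. Whether r differs between the genotypes was not tested.

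The genes most like each PRL gene were ranked by the centred Pearson r over 12 tumors among protein-coding genes with a mean of at least 5 CPM. For Ptp4a3 the 5 highest were Tpgs1 (0.92), Polr2j (0.91), Sdhd (0.89), Washc3 (0.87) and S100a6 (0.87), and the lowest were Igf1r (-0.92) and Tshz2 (-0.92). For the 5 highest, r was 0.92 to 0.99 in Arf6-null, and 0.40 (S100a6) to 0.77 (Sdhd) in wild type. For Igf1r and Tshz2 it was -0.99 and -0.96 in Arf6-null, and -0.60 and -0.71 in wild type. No test was made of whether these values differ between the genotypes. For Ptp4a2 the highest were Rnf10 (0.90), Eloa (0.89), Lrrc41 (0.89), Atg4b (0.88) and Gng5 (0.88), with Vps9d1 (-0.90) and Mtcp1 (-0.88) lowest. For Ptp4a1 they were Prkacb (0.92), Tmem129 (0.87), Cbfb (0.85), St6gal1 (0.85) and Topors (0.85), with Ggact (-0.91) and Ldhb (-0.91) lowest. No endothelial gene of the fixed list is among them, but so few of the ranked genes are named that nothing is read from that. Values of this size are the extremes of 11239 genes ranked on 12 libraries, so they are a description only.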

How the data were processed

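RNA of 12 mouse melanoma tumors was sequenced from TruSeq stranded mRNA libraries, per the labels' protocols. The authors deposited raw read counts per Ensembl gene, whole numbers without normalization. The submitters' processing notes name STAR 2.7.3a, featureCounts 1.6.3, DESeq2 1.26.0 and the build GRCm38 (mm10). Not given in the sources used here are the counter's strand setting, its annotation release, and its treatment of reads in overlapping genes or at several places. Groups came from the genotype label and columns were matched by the library names in the titles.

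Genes were filtered with filterByExpr (minimum 10 counts, 16225 genes), scaled with TMM factors and tested in edgeR 4.0.16 under R 4.3.3 by glmQLFTest, with Benjamini-Hochberg adjustment over all tested genes and a threshold of 0.05. Fold changes divide Arf6-null by wild type, and log2 CPM used a prior count of 2. A list's score averages the log2 CPM of its tested genes. Correlations were tested with 100000 permutations within genotypes, or exactly over the 720 orders of 6 tumors, two-sided. Gene models and transcript sequences were those of GENCODE M21, coding sequences were aligned with Biopython 1.88, and pseudogenes were searched with BLAST 2.17.0. Of the identifiers, 55227 had a symbol.

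The PRL genes, the lists, the tests and the naming rule were chosen with earlier results of these data known. The rule named the PRL and Cnnm genes, Arf6, 6 endothelial genes, the 2 smallest p-values of each other list, any list gene that passed, the 3 nearest tested genes on each side of Ptp4a3, and the 5 highest and 2 lowest correlations of each PRL gene. Some others, such as Esam and Cldn5, were named outside that rule. Macrophage, T cell, B cell, keratinocyte and cell cycle lists (0 genes called by edgeR, DESeq2 1.42.0 or limma-voom 3.58.1, and 0 at an unadjusted p under 0.05) served as scores or frame. A further phosphatase list is not reported here. Alternatives were other scalings, filters, tests, covariates and left-out libraries. Summing both Ptp4a1 identifiers was added after seeing the data. All 66 pairs of libraries differed by more than sampling noise (smallest chi-square per degree of freedom 94). The functions were tested on simulated data.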

Additional observations from a re-analysis of the deposited data

How the results depend on the processing

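The number of genes that passed the genotype comparison, 186, depended on the processing. DESeq2, run on all identifiers with a read, gave 2241, of which 1941 were among the 16225 genes that edgeR tested. With a covariate it was 31 (Y-linked expression), 7 (endothelial score), 9 (mural score) and 16 (muscle score), and 35 without wild-type replicates 3, 4 and 5. Leaving out single libraries gave 25 to 766, with the highest numbers without wild-type replicates 2 (766) and 5 (537) and Arf6-null replicate 6 (672), and the lowest without Arf6-null replicate 1 (25) and wild-type replicates 1 and 6 (27 each). The cause was not tested. The count stayed within 1.5 times of 186 under 6 other settings. The centred r of Ptp4a3 with the endothelial score ran from -0.160 to 0.217 over fits that leave out a library, and was below 0 without wild-type replicate 2 (-0.0232) and without Arf6-null replicates 3 (-0.0793), 5 (-0.160) and 6 (-0.0449). It was -0.108 with the muscle score removed as well, 0.094 with the fibroblast score removed and 0.623 with the mural score removed, and the cause was not tested. The value was 0.378 with 6 endothelial genes in place of the list and 0.383 for Ptp4a3 minus the mean of its paralogs. The Ptp4a1 identifiers changed sign between fits that leave out a library, from -0.26 to 0.47 and from -0.09 to 0.39, on 4 to 147 counts per library. The series' design text describes the wild-type tumors as matched, without saying by what. No paired analysis was possible because the labels give no replicate numbers that the genotypes share and tie no tumor of a genotype to a tumor of the other.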

Other observations

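Apart from the PRL genes, lists of other cells in the tumors held a few genes with large fold changes that did not pass the edgeR test. Kit, the receptor of melanocytes and mast cells, was at 15.4 ± 5.27 CPM in the 6 wild-type tumors and 5.28 ± 2.64 CPM in the 6 Arf6-null tumors (log2 fold change -1.54, SE 0.40, adjusted p = 0.0629), and its ranges did not overlap. The other 3 tested genes of the melanocyte list had log2 fold changes of -0.03 (Mitf), 0.08 (Pmel) and 0.19 (Gpnmb), and the median of the 4 was 0.02. Of the 4 genes 0 passed by edgeR or limma-voom, while 1 did by DESeq2 and 1 had an unadjusted p under 0.05. Among fibroblast genes, Postn, a matrix protein of activated fibroblasts, averaged 1874 ± 1387 and 356 ± 370.2 CPM (-2.40, SE 0.81, adjusted p = 0.113), and Fbln1, another matrix protein, 211 ± 129 and 73.2 ± 32.6 CPM (-1.53, SE 0.45, adjusted p = 0.0831). Among macrophage genes, Mrc1, the mannose receptor, averaged 585 ± 401 and 309.7 ± 100.5 CPM (-0.92, SE 0.45, adjusted p = 0.237). It had the lowest log2 fold change of the 12 macrophage genes, whose median was -0.32, with 10 negative and 2 positive. Of the 12, 0 had an unadjusted p under 0.05.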
